A study of Mus musculus with 6 samples.

Results

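The genes described here encode the machinery through which mTORC1, the nutrient-activated form of the mTOR kinase, reads amino acid supply at the lysosome. They are 38 genes chosen by name for their known roles, with earlier results of these data known, of 24956 rows in the table. All 38 were found by gene symbol. RNA was sequenced from mouse intestinal organoids, three-dimensional cultures of gut epithelium, of the Apc Min genotype, which carries a truncated allele of the Wnt pathway scaffold Apc. Low glutamine medium (3 libraries) was compared with control medium (3 libraries), and every library in both groups carried the Apc Min genotype. Which glutamine concentrations, culture times and gut segments were used is not given in the sources used here. All replicates are called biological, without saying which animals or cultures they stem from, and p-values cover only how these 6 libraries vary.

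Amino acids act, by several routes, on the Rag GTPases, heterodimers of RagA or RagB with RagC or RagD. These GTPases sit on the lysosomal surface through the Ragulator complex and bring mTORC1 there. GATOR1 switches RagA off, GATOR2 opposes GATOR1, sestrins bind GATOR2, and folliculin with its partners acts on RagC and RagD. At the lysosome the small GTPase Rheb activates the kinase unless the TSC complex, which receives growth factor and energy signals, keeps Rheb inactive. Active mTORC1 phosphorylates translation regulators and restrains both the autophagy kinase ULK1 and the lysosomal transcription factors TFEB, TFE3 and MITF. Most of this control is exerted on proteins, and only RNA was measured here.

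Values are RPKM, reads scaled to transcript length and library depth by the authors, so that levels can be set side by side between genes. Changes are log2 fold changes of log2(RPKM + 1), low glutamine over control, with standard errors from limma, a linear model fitted across all genes, and a gene passed where its Benjamini-Hochberg adjusted p over 11082 tested genes was under 0.05. Genes with a mean under 1 RPKM over the 6 libraries were not tested, which left 37 of the 38 members. The estimated depth was 28200000 to 34000000 reads per low glutamine library and 24300000 to 35300000 reads per control library. The groups differed in more than the medium: Xist, the RNA that silences an X chromosome, stood at 0.0237 to 0.0350 RPKM in low glutamine libraries and at 83.1 to 90.5 RPKM in control libraries, and the Y-linked Eif2s3y at 25.2 to 31.4 RPKM in low glutamine libraries and at 0 in each control library. This difference and the medium cannot be told apart for any gene below.

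In low glutamine 7 of the 8 Rag GTPase and Ragulator members, which place mTORC1 on the lysosome, were lower, where 30.3% of all tested genes were. Counting these groups together was not planned in advance. Among the 7, Lamtor3 and Lamtor5 did not pass with libraries rescaled to a common RPKM sum. Of 6 kinase complex genes 1 (Rictor) passed, and the switch Rheb did not. Of the 3 Rag GTPase members, Rragd and Rragc fell and Rraga rose, and all 5 Ragulator subunits fell. Rragb, a Rag gene that is no member, lay below the limit for testing. Pairs of related genes moved in opposite directions in the sestrins (Sesn1 lower, Sesn3 higher) and among the folliculin partners (Fnip1 lower, Fnip2 higher). Of the 37 tested members, 22 passed the test, 59.5% against 66.4% of all tested genes. The share of members that passed was thus close to that of the whole table. Of the members 8 were higher, 21.6% against 36.1% of all tested genes, and 14 were lower, 37.8% against 30.3%. The groups did not overlap for 26 members, 70.3% against 70.2% of all tested genes. Changes were small for most members: 13 passed with an absolute log2 fold change of at least 0.3, 35.1% against 41.6% of all tested genes, and 1, Rragd, passed with a change of at least 1.5-fold on the RPKM + 1 scale, 2.7% against 18.6%. By the plain ratio of mean RPKM, Fnip2 (1.62-fold) and Sesn3 (1.52-fold) also lay past 1.5-fold. The median log2 fold change of the members was -0.01, beside 0.03 over all tested genes, and the median absolute change 0.20, beside 0.24.

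The direction of small changes depended on how the libraries were scaled. The RPKM sum was 327955.5 to 347248.2 in low glutamine libraries and 362217.3 to 370157.8 in control libraries. Within it the ribosomal RNA precursor Rn45s stood at 6788 to 12252 RPKM in low glutamine libraries and 1898 to 6680 RPKM in control libraries. With each library rescaled to a common RPKM sum the median of all tested genes shifted by 0.11 and 14 members were higher and 10 lower; with the ribosomal RNA precursor Rn45s left out of that sum the shift was 0.14 and 19 were higher and 10 lower. Median-of-ratios scaling gave 8 higher and 17 lower. Relative to the median of all tested genes, the member median stood at -0.05 in the deposited values, at -0.05 under each of these scalings and at -0.08 (-0.075) with quantile normalization.

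**Figure D1:**
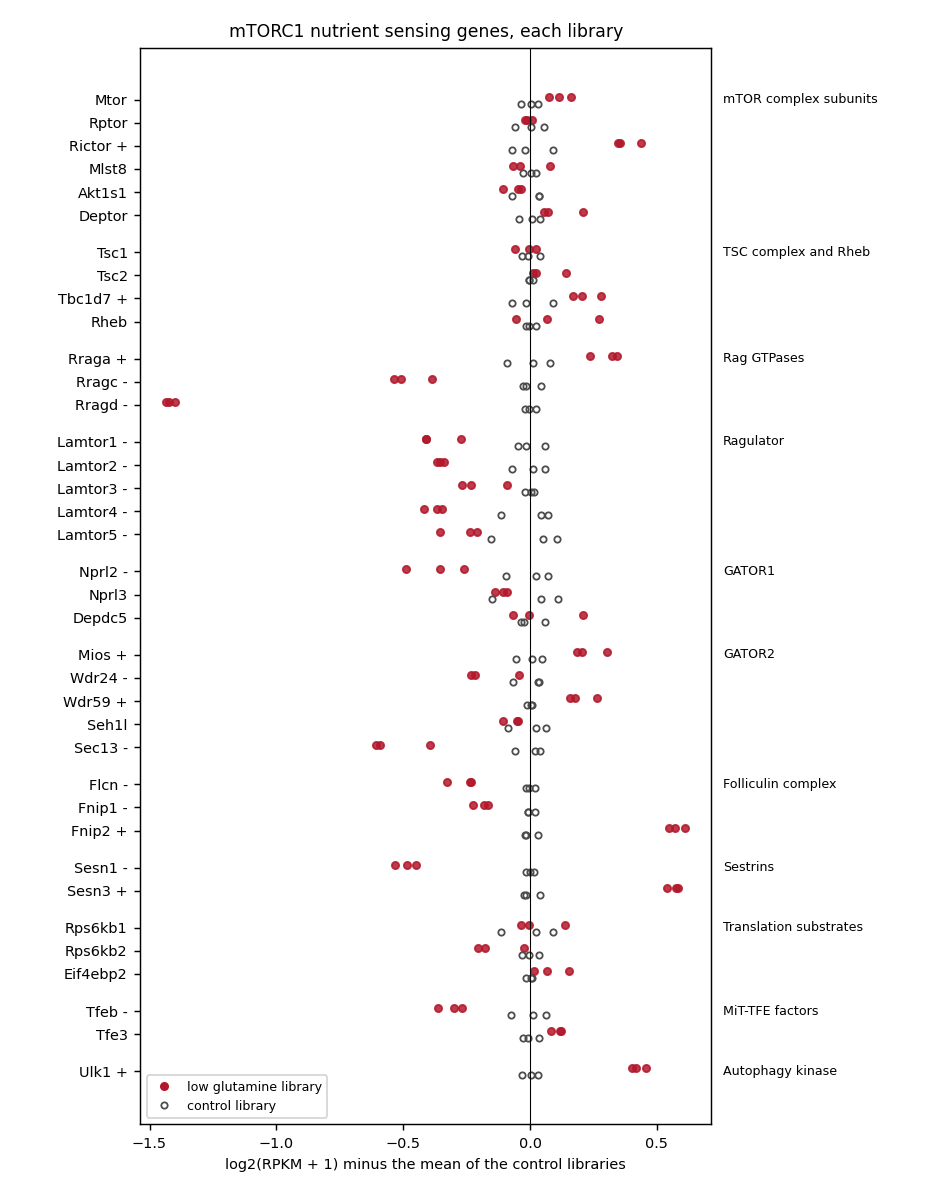
Each point is 1 library, with low glutamine libraries filled and control libraries open, placed by its log2(RPKM + 1) minus the mean of the control libraries; genes are grouped by complex, and + or - after a name marks a gene that passed the test as higher or lower in low glutamine. Rragd lies farthest from its control libraries, and all 5 Ragulator genes lie to the left of 0.

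Of the 6 subunits of the kinase complexes 1 passed the test. Mtor, the kinase itself (chromosome 4, 148448582 to 148557685, mm10), measured 5.78, 5.60 and 6.02 RPKM in low glutamine libraries, against 5.40, 5.29 and 5.12 RPKM in control libraries. The groups did not overlap, but the difference did not pass (log2 fold change 0.12 ± 0.05 SE, limma adjusted p = 0.069). Rptor, which encodes Raptor, the subunit that recruits substrates to mTORC1 (chromosome 11, 119602905 to 119899591), measured 6.92, 7.08 and 6.96 RPKM in low glutamine libraries, against 7.35, 7.06 and 6.71 RPKM in control libraries. Those groups overlapped, and the fold change was -0.01 ± 0.05 (adjusted p = 0.89). With rescaling to a common sum Mtor passed as higher (0.22), and with Rn45s left out of the sum both did (0.25 for Mtor and 0.13 for Rptor). The shared subunit Mlst8 averaged 9.05 ± 0.543 RPKM in low glutamine and 9.11 ± 0.173 RPKM in control (SD, n = 3 each). The inhibitory subunits Akt1s1 and Deptor averaged 17.7 and 19.7 RPKM in low glutamine and 18.5 and 18.2 RPKM in control, and neither passed. Deptor passed as higher with rescaling to a common sum (0.23), also without Rn45s (0.26), and with quantile normalization (0.17, adjusted p = 0.0049), and Akt1s1 as lower with median-of-ratios scaling (-0.10, adjusted p = 0.032). Mlst8 passed as higher with rescaling without Rn45s (0.13, adjusted p = 0.043).

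The subunit that passed was Rictor, the defining subunit of mTORC2, the second complex built on the kinase (chromosome 15, 6708349 to 6800401). It measured 6.13, 5.70 and 5.73 RPKM in low glutamine libraries, against 4.61, 4.20 and 4.02 RPKM in control libraries. Every low glutamine library was above every control library, and the rise of 0.38 ± 0.06 passed (adjusted p = 1.24e-04). The ratio of Rptor to Rictor RPKM within a library, which a common factor for the library cannot move, averaged 1.19 ± 0.06 in low glutamine and 1.65 ± 0.05 in control (SD, n = 3 each). The ratios of the groups did not overlap. An exact two-sided permutation test on the log2 ratio of RPKM + 1 gave p = 0.1, the smallest that 3 against 3 libraries allow, and 0.117 adjusted over the 7 ratios compared.

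The switch below growth factor signals showed 1 small rise. Tsc1 and Tsc2 encode the core of the complex that inactivates Rheb. Tsc2 (chromosome 17, 24595816 to 24632676) measured 11.1, 11.2 and 12.2 RPKM in low glutamine libraries, against 10.9, 10.9 and 11.1 RPKM in control libraries, and did not pass (0.06 ± 0.05, adjusted p = 0.34). Tsc1 averaged 5.04 ± 0.175 and 5.10 ± 0.153 RPKM in low glutamine and control and did not pass, but passed as higher with rescaling without Rn45s (0.12, adjusted p = 0.027). Rheb (chromosome 5, 24802823 to 24842361) measured 30.0, 27.5 and 34.7 RPKM in low glutamine libraries, against 28.5, 28.2 and 29.0 RPKM in control libraries. Low glutamine replicate 2 lay below every control library and the other low glutamine libraries above, and the difference did not pass (0.09 ± 0.07, adjusted p = 0.27). Tbc1d7, the third subunit of the TSC complex, averaged 4.32 ± 0.208 RPKM in low glutamine and 3.58 ± 0.261 RPKM in control and rose (0.22 ± 0.06, adjusted p = 0.0079), but did not pass with quantile normalization (0.11, adjusted p = 0.12). With libraries rescaled to a common sum Tsc2 and Rheb passed as higher (0.18 and 0.22), and Rheb also with quantile normalization (0.18).

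The Rag GTPases held the member with the largest change. Rragd, which encodes RagD (chromosome 4, 32982998 to 33022180), measured 9.14, 9.29 and 9.07 RPKM in low glutamine libraries, against 25.8, 26.7 and 26.1 RPKM in control libraries. The low glutamine libraries stood at 34.99% of the control mean, and the fall of 1.42 ± 0.05 on the log2 scale passed (adjusted p = 9.65e-11). Rragc, which encodes the alternative partner RagC (chromosome 4, 123917433 to 123936997), measured 20.0, 19.6 and 21.9 RPKM in low glutamine libraries, against 28.6, 29.7 and 28.3 RPKM in control libraries. The groups did not overlap, and Rragc fell by 0.48 ± 0.06 (adjusted p = 1.04e-05). Because the drop was larger for Rragd, the ratio of Rragd to Rragc within a library was 0.46, 0.47 and 0.41 in low glutamine libraries, against 0.90, 0.90 and 0.92 in control libraries. These ratios did not overlap (exact two-sided permutation p = 0.1, the smallest possible, adjusted p = 0.117 over 7 ratios).

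Rraga, which encodes RagA (chromosome 4, 86575673 to 86577285), moved the other way and is given in full because its partners fell, a choice made after its values were seen. It measured 32.7, 30.7 and 33.2 RPKM in low glutamine libraries, against 27.5, 26.2 and 24.3 RPKM in control libraries, and rose by 0.30 ± 0.06 (adjusted p = 6.94e-04). Rragb, the near-identical paralog on the X chromosome, stood at 0.226 to 0.295 RPKM in low glutamine libraries and at 0.0180 to 0.112 RPKM in control libraries, below the limit for testing. Reads that fit both Rraga and Rragb may have been split by the authors' counting. The summed RPKM of Rragc and Rragd over that of Rraga and Rragb, also chosen after the values were seen, was 0.885, 0.933 and 0.924 in low glutamine libraries, against 1.98, 2.15 and 2.23 in control libraries. In RPKM the RagC and RagD side thus exceeded the RagA and RagB side in each control library and was below it in each low glutamine library. The level of this ratio also depends on the transcript lengths and read assignment used for each gene.

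Ragulator, the scaffold of 5 small proteins that anchors the Rag GTPases, had 5 of 5 subunits that passed as lower, where 30.3% of all tested genes did. Lamtor1, whose lipid-modified product tethers the complex to the membrane (chromosome 7, 101905837 to 101911903), measured 35.01, 34.996 and 38.6 RPKM in low glutamine libraries, against 46.4, 48.9 and 45.3 RPKM in control libraries. It fell by 0.36 ± 0.06 (adjusted p = 1.44e-04). Lamtor2 (chromosome 3, 88549819 to 88552951) measured 31.9, 32.2 and 32.6 RPKM in low glutamine libraries, against 41.9, 43.3 and 39.4 RPKM in control libraries, a fall of 0.36 ± 0.05 (adjusted p = 8.47e-05). Lamtor4 (chromosome 5, 138255482 to 138259395) measured 17.7, 16.8 and 17.4 RPKM in low glutamine libraries, against 23.5, 24.0 and 21.0 RPKM in control libraries, a fall of 0.38 ± 0.06 (adjusted p = 1.24e-04). In these 3 genes no library of one group reached the range of the other.

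Lamtor3 and Lamtor5 moved least within the complex, at 18.1 ± 1.26 and 21.7 ± 1.19 RPKM in low glutamine and 20.9 ± 0.262 and 26.3 ± 2.55 RPKM in control. They fell by 0.20 and 0.27 (adjusted p = 0.0087 and 0.0056), and kept the direction but did not pass with libraries rescaled to a common sum (adjusted p = 0.093 and 0.060). Lamtor5 also did not pass without a filter on low values (adjusted p = 0.078). The summed RPKM of the 5 subunits was 124, 122 and 131 in low glutamine libraries, against 161, 164 and 150 in control libraries, a low glutamine mean of 79.2% of control. All 5 lay below the median of all tested genes under each scaling tried, and their median stood 0.39 below it in the deposited values and 0.24 below it with quantile normalization.

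**Figure D2:**
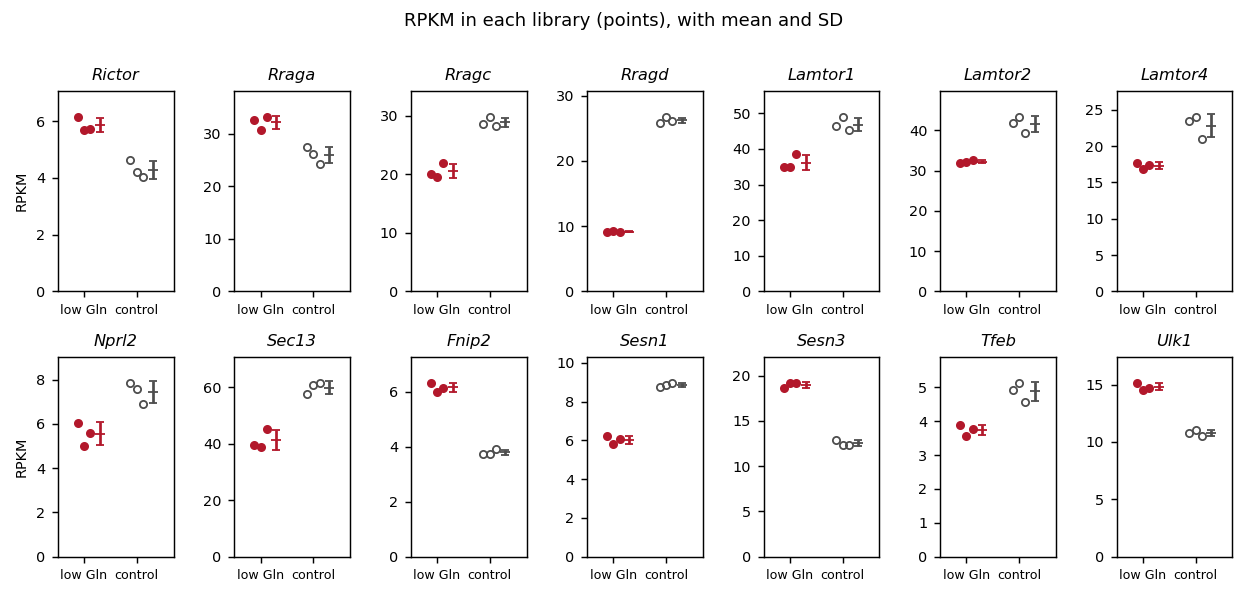
RPKM per library for the members that passed with an absolute log2 fold change of at least 0.3, with Rraga added; filled points are low glutamine libraries, open points control libraries, and the bar beside each group is its mean with SD (n = 3). The vertical axes start at 0 and differ between genes. The groups overlap in none of the 14 panels, which largely follows from showing only genes that passed. Of all tested genes 70.2% had groups that did not overlap.

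Start regions were searched for the E-box CACGTG, which TFEB and its relatives, held in check by mTORC1, bind. Of the Rag and Ragulator genes 4 that fell are shown: Rragd, with the largest change, and the 3 whose window holds the motif. Windows run from 250 bases before to 50 after a RefSeq start site (GRCm38.p6), on the plus strand, 5′ to 3′, with CACGTG in capitals. They lie at chr4:32982748-32983047 for Rragd, chr4:123917183-123917482 for Rragc, chr7:101905587-101905886 for Lamtor1 and chr5:138255232-138255531 for Lamtor4.
Rragd: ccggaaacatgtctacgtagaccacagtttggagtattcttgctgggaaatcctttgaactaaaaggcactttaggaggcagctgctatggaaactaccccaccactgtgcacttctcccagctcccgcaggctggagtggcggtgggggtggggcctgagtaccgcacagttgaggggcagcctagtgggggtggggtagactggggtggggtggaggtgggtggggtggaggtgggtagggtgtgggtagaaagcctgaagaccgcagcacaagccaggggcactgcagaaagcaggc
Rragc: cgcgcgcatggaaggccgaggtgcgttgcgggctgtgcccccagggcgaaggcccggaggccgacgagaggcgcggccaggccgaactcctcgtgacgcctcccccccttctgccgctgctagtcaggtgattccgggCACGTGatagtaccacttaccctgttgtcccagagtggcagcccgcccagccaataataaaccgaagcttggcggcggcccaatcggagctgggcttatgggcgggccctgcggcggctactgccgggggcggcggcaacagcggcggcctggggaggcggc
Lamtor1: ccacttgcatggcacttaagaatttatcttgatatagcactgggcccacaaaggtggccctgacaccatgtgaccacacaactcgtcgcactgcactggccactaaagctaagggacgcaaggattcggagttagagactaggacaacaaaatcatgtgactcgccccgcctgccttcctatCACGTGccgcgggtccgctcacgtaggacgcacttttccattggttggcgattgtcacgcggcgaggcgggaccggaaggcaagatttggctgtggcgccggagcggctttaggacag
Lamtor4: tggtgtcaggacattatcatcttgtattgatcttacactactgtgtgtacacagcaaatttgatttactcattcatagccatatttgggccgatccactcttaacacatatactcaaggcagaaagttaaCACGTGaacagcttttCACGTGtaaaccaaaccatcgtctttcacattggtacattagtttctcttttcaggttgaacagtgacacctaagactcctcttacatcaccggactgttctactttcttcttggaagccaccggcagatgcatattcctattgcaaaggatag
The Rragd window, of the gene that fell most, holds 0 matches. The Rragc and Lamtor1 windows hold 1 match each, beginning 112 and 68 bases before the start site, and the Lamtor4 window holds 2. The windows of Rraga, which rose, and of Lamtor2 and Lamtor5, which fell, hold 0; Lamtor3 had no window. A window was found for 33 of the 38 members, and 6 of these genes (Fnip1, Lamtor1, Lamtor4, Rheb, Rragc and Tbc1d7) hold CACGTG, which reads the same on both strands, in at least 1 window. Over all genes with a window, 8.09% of 27025 do. By outcome, the motif was in 4 of 12 members that fell, 1 of 8 that rose and 1 of 12 that did not pass. The longer GTCACGTG, searched on both strands and overlapping CACGTG by construction, was in the window of 1 member, Rheb, and in 2.55% of all genes, and TGATGCAA, a response element of ATF4, in 0 members and 1.03% of all genes. A match describes these letters and no binding was measured.

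The GATOR complexes, which relay amino acid signals to RagA, changed unevenly. In GATOR1, the complex that switches RagA off, 1 of 3 subunits passed. Nprl2 (chromosome 9, 107542177 to 107545706) measured 6.05, 5.02 and 5.61 RPKM in low glutamine libraries, against 7.86, 7.60 and 6.91 RPKM in control libraries. The groups did not overlap, and Nprl2 fell by 0.37 ± 0.07 (adjusted p = 4.54e-04). Its partner Nprl3 averaged 3.35 and 3.72 RPKM in low glutamine and control and Depdc5, the largest subunit, 3.55 and 3.395 RPKM, and neither passed. Nprl3 passed as lower with quantile normalization (-0.24, adjusted p = 0.0084) and without control replicate 3 (-0.19, adjusted p = 0.016), and Depdc5 as higher with rescaling without Rn45s (0.17, adjusted p = 0.036).

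In GATOR2, which opposes GATOR1, 2 of 5 subunits rose and 2 fell. Sec13, which also serves in vesicle coats and nuclear pores (chromosome 6, 113728052 to 113740681), measured 39.4, 39.0 and 45.3 RPKM in low glutamine libraries, against 57.4, 60.6 and 61.6 RPKM in control libraries, and was the most abundant member in control. It fell by 0.53 ± 0.07 (adjusted p = 1.56e-05) with no overlap. Mios averaged 6.34 ± 0.323 RPKM in low glutamine and 5.25 ± 0.218 RPKM in control, and Wdr59 4.73 ± 0.226 and 3.99 ± 0.0360 RPKM. These rose by 0.23 and 0.20 (adjusted p = 0.0031 and 0.0062). Wdr24 averaged 7.84 ± 0.648 RPKM in low glutamine and 8.90 ± 0.384 RPKM in control. Its groups overlapped, and its fall of 0.16 passed narrowly (adjusted p = 0.034). It did not pass without control replicate 1 or 2 or without low glutamine replicate 1 or 2 (adjusted p from 0.091 to 0.12), nor with rescaling to a common sum (-0.05). Seh1l, which like Sec13 is shared with nuclear pores, averaged 24.9 and 26.2 RPKM in low glutamine and control and did not pass, but passed as lower with median-of-ratios scaling (-0.11, adjusted p = 0.033).

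The sestrins, stress-induced proteins that bind GATOR2, went in opposite directions. Sesn1 (chromosome 10, 41810574 to 41908436) measured 6.22, 5.83 and 6.05 RPKM in low glutamine libraries, against 8.77, 8.87 and 8.98 RPKM in control libraries, and fell by 0.49 ± 0.05 (adjusted p = 3.07e-06). Sesn3 (chromosome 9, 14276301 to 14326134) measured 18.6, 19.2 and 19.2 RPKM in low glutamine libraries, against 12.9, 12.3 and 12.4 RPKM in control libraries, and rose by 0.57 ± 0.05 (adjusted p = 6.60e-07). Neither pair of groups overlapped. Within a library Sesn3 exceeded Sesn1 by 2.99-, 3.30- and 3.17-fold in low glutamine, against 1.47-, 1.39- and 1.38-fold in control (exact two-sided permutation p = 0.1, the smallest possible, adjusted p = 0.117 over 7 ratios). Sesn2, whose product is a leucine sensor, is no member but completes the family, and averaged 10.1 ± 0.221 RPKM in low glutamine and 7.45 ± 0.359 RPKM in control, a rise of 0.40 ± 0.05 (adjusted p = 2.96e-05).

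Folliculin acts with either of the partners FNIP1 and FNIP2 to switch RagC and RagD into the form that recruits mTORC1. Flcn itself averaged 6.39 ± 0.278 RPKM in low glutamine and 7.87 ± 0.108 RPKM in control and fell by 0.27 ± 0.05 (adjusted p = 7.01e-04). Fnip2 (chromosome 3, 79455971 to 79568151) measured 6.32, 6.00 and 6.13 RPKM in low glutamine libraries, against 3.74, 3.73 and 3.90 RPKM in control libraries. Its mean was 1.62-fold that of control, with no overlap, and it rose by 0.58 ± 0.05 (adjusted p = 9.38e-07). Fnip1 averaged 6.32 ± 0.147 RPKM in low glutamine and 7.36 ± 0.0965 RPKM in control. It fell by 0.19 ± 0.05 (adjusted p = 0.0049) but did not pass with rescaling to a common sum (adjusted p = 0.13). The ratio of Fnip2 to Fnip1 was 0.982, 0.941 and 0.995 in low glutamine libraries, against 0.501, 0.511 and 0.534 in control libraries (exact two-sided permutation p = 0.1, adjusted p = 0.117). The partners were thus near equal in low glutamine, while the summed RPKM of the 3 genes was 18.4 to 19.3 in low glutamine libraries and 18.98 to 19.07 in control libraries.

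**Figure D3:**
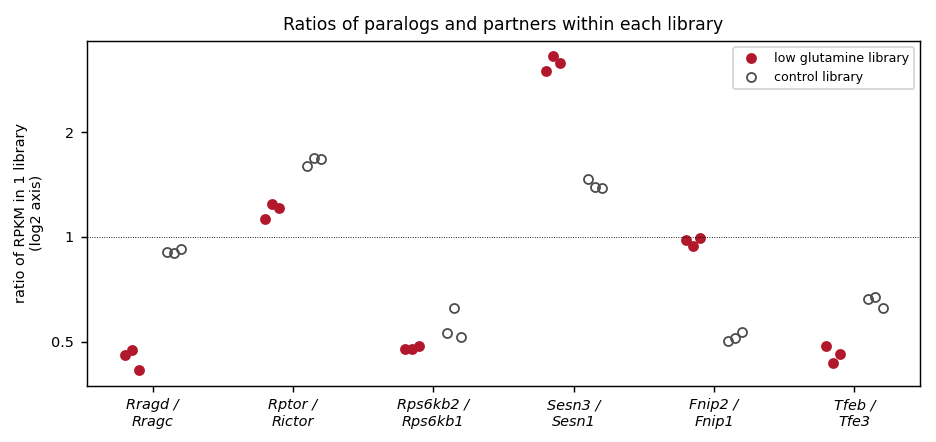
Ratio of the RPKM of 2 members within each library, on a log2 axis, with low glutamine libraries (filled) left of control libraries (open) for each pair. The groups do not overlap in any of the 6 pairs shown; the ratio of Mitf to Tfe3 is left out because Mitf was near 0.

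Downstream of the kinase, the 3 members that encode translation substrates did not pass in the deposited values, and the autophagy kinase rose. These members are a part of the translation substrates. Rps6kb1 and Rps6kb2 encode the S6 kinases and Eif4ebp2 a repressor of cap-dependent translation. They averaged 8.28, 3.98 and 56.9 RPKM in low glutamine and 8.07, 4.47 and 53.7 RPKM in control, with changes of 0.03, -0.14 and 0.08. Eif4ebp2 passed as higher with rescaling to a common sum (0.20, adjusted p = 5.93e-04), also without Rn45s (0.23), and with quantile normalization (0.23), and Rps6kb1 with rescaling without Rn45s (0.17, adjusted p = 0.040). Rps6kb2 stood at an adjusted p of 0.069, and passed as lower in a fit blocked by replicate (-0.14, adjusted p = 0.0499), with median-of-ratios scaling (-0.17), with quantile normalization (-0.23) and without low glutamine replicate 3 (-0.19, adjusted p = 0.0114). Ulk1, the kinase that starts autophagy (chromosome 5, 110784489 to 110810120), measured 15.2, 14.5 and 14.7 RPKM in low glutamine libraries, against 10.8, 11.04 and 10.5 RPKM in control libraries. Every low glutamine library was above every control library, and Ulk1 rose by 0.43 ± 0.05 (adjusted p = 9.47e-06).

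Among the lysosomal transcription factors Tfeb fell. It (chromosome 17, 47737037 to 47792416) measured 3.88, 3.57 and 3.77 RPKM in low glutamine libraries, against 4.92, 5.14 and 4.58 RPKM in control libraries, a fall of 0.31 ± 0.06 (adjusted p = 5.04e-04) with no overlap. Tfe3, on the X chromosome, averaged 8.11 ± 0.137 RPKM in low glutamine and 7.46 ± 0.185 RPKM in control and did not pass (0.11 ± 0.05, adjusted p = 0.079). It passed as higher without a filter on low values (adjusted p = 0.023) and with rescaling to a common sum (0.22, adjusted p = 9.70e-04), also without Rn45s (0.24). The ratio of Tfeb to Tfe3 was 0.488, 0.435 and 0.461 in low glutamine libraries, against 0.662, 0.670 and 0.627 in control libraries (exact two-sided permutation p = 0.1, adjusted p = 0.117). Mitf, the third factor, stood at 0.0117 to 0.0454 RPKM in low glutamine libraries and 0.00791 to 0.0186 RPKM in control libraries and was the member not tested.

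Genes whose products work beside this machinery were read from lists of the pathway. The counts of each list are to be set beside all tested genes, of which 36.1% were higher and 30.3% lower. For the proton pump, the membrane enzyme that acidifies the lysosome and on which Ragulator rests, 13 of 18 tested subunits and accessory genes were lower and 1 higher, with a median of -0.38 beside 0.03 over all tested genes. Atp6v0d1, Atp6v0a1 and Tcirg1, all of its membrane sector, averaged 24.3, 11.8 and 5.37 RPKM in low glutamine and 39.3, 19.1 and 8.40 RPKM in control, falls of 0.67, 0.65 and 0.56. The 1 that rose was Atp6v0e2 (1.84 and 1.03 RPKM in low glutamine and control). Of 23 tested lysosomal genes known or reported as targets of TFEB and its relatives, 16 were lower and 3 higher, with a median of -0.27. Hexa, which encodes a lysosomal enzyme subunit, averaged 30.7 RPKM in low glutamine and 54.4 RPKM in control, and the protease gene Ctsb (cathepsin B) 98.8 and 160.5 RPKM. The 3 that rose were the lysosomal hydrolases Naglu, Gaa and Asah1, by 0.55, 0.27 and 0.21.

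Of 11 other tested nutrient sensor genes of the pathway 6 rose and 1 fell, with a median of 0.25, where 36.1% of all tested genes were higher. With quantile normalization 5 rose and 4 fell. Lars, the leucyl-tRNA synthetase, averaged 33.1 ± 2.23 RPKM in low glutamine and 23.5 ± 0.699 RPKM in control, Itfg2, of the KICSTOR complex that holds GATOR1 at the lysosome, 6.90 and 4.99 RPKM, and the amino acid transporter Slc36a1 5.95 and 4.09 RPKM. The gene that fell, Slc66a1, encodes a lysosomal exporter of cationic amino acids (3.11 and 4.48 RPKM in low glutamine and control). Of 12 tested genes of energy and stress input 3 rose and 4 fell, where 36.1% of all tested genes were higher and 30.3% lower. With rescaling to a common sum 6 rose and 3 fell, and without Rn45s 8 rose and 3 fell. The AMP-activated kinase subunits Prkag2 and Prkaa2 fell by 0.89 and 0.79, at 9.92 and 4.96 RPKM in low glutamine and 19.2 and 9.30 RPKM in control, and its activator Camkk2 rose by 0.58. The other subunits did not fall with them: Prkab1 rose by 0.31 (28.0 and 22.4 RPKM in low glutamine and control), and Prkaa1, Prkab2 and Prkag1 did not pass.

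For the counts of the remaining lists too, 36.1% of all tested genes were higher and 30.3% lower in the deposited values. In the growth factor input list 6 of 15 tested genes rose and 7 fell, among them the AKT phosphatases Phlpp1, higher by 0.77, and Phlpp2, lower by 0.47, and Pik3r1, a regulatory subunit of phosphoinositide kinase, higher by 0.51. With rescaling to a common sum 6 rose and 2 fell. Of 6 tested genes of mTORC2 and of the TTT complex, which assembles mTOR, 1 rose (Tti1, 0.27) and 3 fell. The kinase Sgk3 and the mTORC2 subunits Prr5 and Mapkap1 were lower by 0.62, 0.50 and 0.25, unlike the mTORC2 subunit Rictor, which rose. With rescaling without Rn45s 3 genes of this list rose and 3 fell. Autophagy initiation genes split into 5 higher and 3 lower of 12, with the lipid scramblase Atg9a lower by 0.95 (7.51 and 15.5 RPKM in low glutamine and control) and Wipi2 and Ambra1 higher by 0.30 and 0.31; with quantile normalization 4 were higher and 4 lower. Of 16 translation effectors 2 rose and 6 fell, but 7 rose and 3 fell with rescaling to a common sum. Pdcd4, an inhibitor of the helicase that unwinds messenger RNA leaders, and the helicase gene Eif4a2 fell by 0.45 and 0.48, and the cap-binding Eif4e2 by 0.20. Eif4e2 did not pass with rescaling to a common sum (-0.083, adjusted p = 0.099) or without Rn45s (-0.057, adjusted p = 0.22). The number of translation effectors that passed was 5, 4 and 3 without control replicate 1, control replicate 2 and low glutamine replicate 1.

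**Figure D4:**
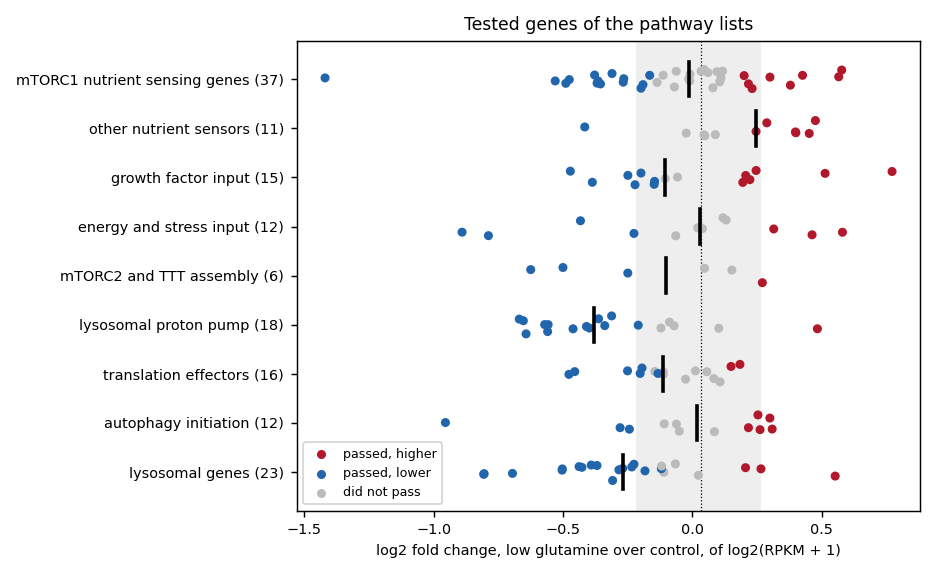
Each point is a tested gene, placed by its log2 fold change (low glutamine over control, of log2(RPKM + 1)) and coloured by whether it passed as higher, passed as lower or did not pass; the black bar is the list's median, and the number of tested genes follows each name. The dotted line is the median of all tested genes (0.03) and the grey band holds their middle quartiles; the proton pump and lysosomal lists have medians of -0.38 and -0.27.

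Cell type marker RNAs differed between the same libraries. All 6 epithelial markers examined (Epcam, Cdh1, Krt8, Krt18, Vil1 and Cdx2) were expressed, with a summed level of 2162 to 2230 RPKM in low glutamine libraries and 1535 to 1686 RPKM in control libraries. They did not move together: 4 passed as higher and 2 as lower. Those lower were Vil1 (132.9 and 190.4 RPKM in low glutamine and control) and Cdx2 (65.6 and 97.1 RPKM). Of 6 enterocyte markers 6 fell, with a summed level of 142 to 151 RPKM in low glutamine libraries and 1278 to 1408 RPKM in control libraries. Of 5 stem cell markers 5 rose, with a summed level of 1327 to 1499 RPKM in low glutamine libraries and 662 to 726 RPKM in control libraries. In bulk RNA fewer cells of a type and less RNA per cell cannot be told apart, and the part of these shifts in the changes of the Rag, Ragulator, proton pump and lysosomal genes was not tested. The stromal markers other than Vim reached at most 0.0286 RPKM in any library, immune markers at most 0.0423 RPKM and endothelial markers at most 0.435 RPKM (Pecam1). Vim averaged 11.5 RPKM in low glutamine and 3.29 RPKM in control.

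Across all members, control levels ran from 0.0125 RPKM for Mitf and 3.395 RPKM for Depdc5 to 53.7 RPKM for Eif4ebp2 and 59.9 RPKM for Sec13. The annotated bounds of 12 of the 38 overlap another gene of the table, among them Tsc2 with Pkd1 and Nprl2 with Cyb561d2. Whether the counting used strand is not given in the sources used here, so reads of such neighbours may not have been told apart. Of the 22 members that passed, 17 kept their direction and passed under all alternatives in which they were tested; the others were Lamtor3, Lamtor5, Wdr24, Fnip1 and Tbc1d7.

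**Figure D5:**
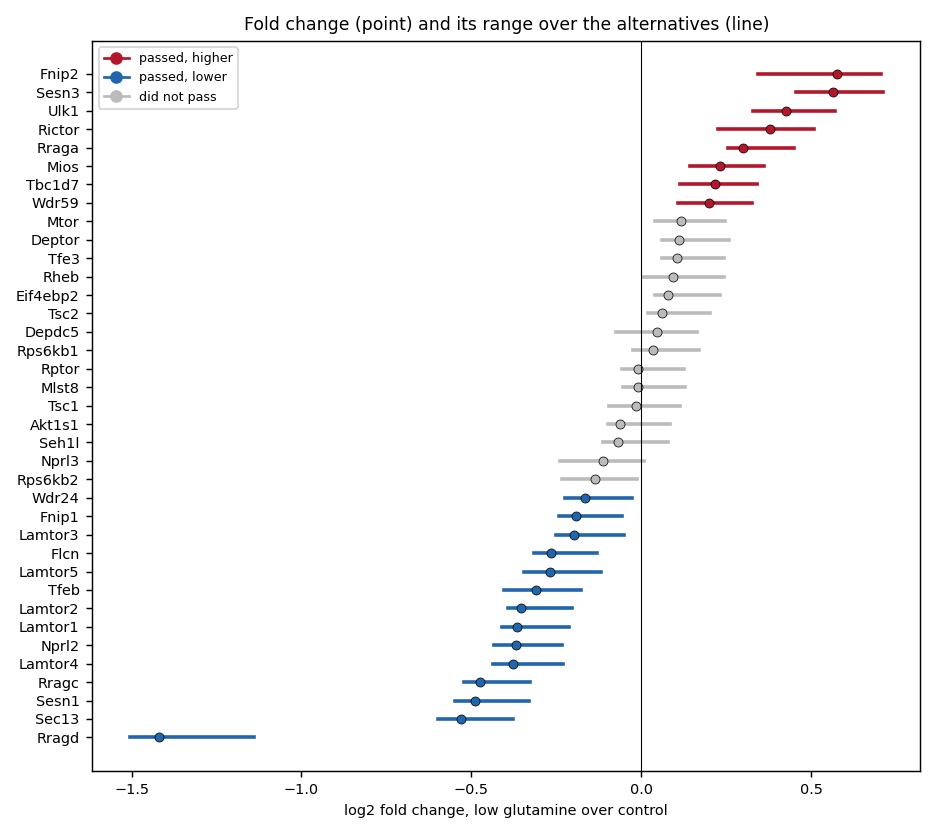
Log2 fold change of each tested member (point, low glutamine over control) with its lowest and highest value over the alternatives (line), ordered from the largest rise to the largest fall. The lines of the 22 members that passed do not cross 0, and Rragd runs from -1.50 to -1.14.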

How the data were processed

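RPKM values were deposited by the authors as 1 table with a column per library. Per the submitters' processing notes, CASAVA 1.8, HISAT2 2.0.4, Partek and mm10 were used, with no role or order; libraries were made with TruSeq kits from total RNA, per the labels' protocols. RPKM are not counts, so limma 3.58.1 (R 4.3.3) was fitted to log2(RPKM + 1) with a variance trend for the 11082 rows with a mean of at least 1 RPKM, two-sided, without covariates, and checked on simulated data. The fold change understates the change of low genes.

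The members and lists were chosen with earlier results of these data known. Values in every library were given for members that passed with an absolute log2 fold change of at least 0.3 and for Mtor, Rptor, Tsc2, Rheb and Tfeb, and up to 3 genes with the smallest p were named per list. Further list genes were named where they completed a small remainder or a complex. Castor1, Castor2 and Slc66a1 were matched through RefSeq synonyms. Kics2 was not used here. The result of 1 further list gene is not reported here. Gene bounds and start windows are RefSeq GRCm38.p6 (mm10), 1-based.

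Depth was estimated from single-exon genes, where 61.2% to 66.9% of the low values checked came out as whole reads within 0.02 of a read. A transcript of 1 kilobase at 1 RPKM thus rested on 24.3 to 35.3 reads per library, and counting error limits the lowest members.

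Replicate numbers 1 to 3 occur in both groups. Deviations of same-numbered libraries from their group means correlated at 0.15, 0.25 and 0.57, all over 0.1, but low glutamine replicate 1 correlated more with control replicate 2 (0.36) than with control replicate 1. A fit with the replicate block is given where it changes the call of a member. In the lists it gave 4 higher and 4 lower for energy and stress input, and 2 and 3 for mTORC2 and assembly. For the lysosomal genes it gave 3 higher and 15 lower. The meaning of the replicate numbers is not given in the sources used here. Alternatives covered the pseudocount, the filter, 4 scalings, the variance trend, autosomal genes alone, the replicate block and leaving out each library. Tables were made in Python 3.11.15 with numpy 2.4.6 and pandas 2.3.3, and plots with matplotlib 3.10.9.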

Additional observations from a re-analysis of the deposited data

How the results depend on the processing

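Leaving out each library in turn gave 21 to 23 members that passed, with 8 higher each time and 13 to 15 lower, and a member median of -0.05 (-0.0537) to 0.001. The replicate block gave 8 higher and 15 lower; Rps6kb2 was the 1 member whose call it changed. Members higher numbered 14 with rescaling to a common RPKM sum, 19 with Rn45s left out of that sum and 5 among the 30 members with a mean of at least 5 RPKM; the last has fewer members tested. The member median was 0.0917 and 0.115 with those rescalings, -0.0457 with median-of-ratios scaling, -0.0576 with quantile normalization, and -0.0384 both at a mean of at least 5 RPKM and on autosomal genes alone.

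Of the lists, energy and stress input had 11 genes that passed with rescaling without Rn45s, growth factor input 8 with either rescaling to a common sum, nutrient sensors 4 at a mean of at least 5 RPKM, and mTORC2 and assembly 7 and translation effectors 3 without a filter. Leaving out a library gave 3 to 9 translation effectors that passed.

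Members that did not pass changed sign in places. With the common sum, and with Rn45s left out of it, Akt1s1 stood at 0.0583 and 0.0848, Mlst8 at 0.105 and 0.130, Rptor at 0.102 and 0.127, Seh1l at 0.0531 and 0.0800, Tsc1 at 0.0917 and 0.115, and Nprl3, with Rn45s left out, at 0.0088. With quantile normalization Depdc5 stood at -0.0743, Rps6kb1 at -0.00332 and Seh1l at 0.00533, and with median-of-ratios scaling Rps6kb1 at -2.71e-05. Without control replicate 1, Mlst8 stood at 0.00105, Rptor at 0.0188 and Tsc1 at 0.00529; without control replicate 2, Rps6kb1 at -0.0231; without low glutamine replicate 2, Mlst8 at 0.0184 and Tsc1 at 0.00846; without low glutamine replicate 3, Depdc5 at -0.0364, Mlst8 at 0.00571 and Rps6kb1 at -0.0194. Over the fits that left out 1 library, Rptor ran from -0.0390 to 0.0188, Tsc1 from -0.0328 to 0.00846 and Rps6kb1 from -0.0231 to 0.0783. The log2 ratio of Mitf to Tfe3 was -0.08 as reported and 0.94 without a pseudocount, with Mitf near 0 in every library. The cause of these shifts was not tested. No alternative turned a member that passed to the other direction. Of the other 6 ratios, none changed direction under the alternatives run.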

Other observations

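Several pathway genes lay below the limit for testing and are given as values. Among mTORC2-related genes, the kinases Sgk1 and Sgk2 averaged 0.226 and 0.0856 RPKM in low glutamine and 1.24 and 0.660 RPKM in control, and Prr5l 0.151 and 1.17 RPKM. The stress gene Ddit4l averaged 0.875 RPKM in low glutamine and 0.255 RPKM in control, and the insulin receptor substrate Irs1 0.580 and 0.218 RPKM. Ddit4, an mTORC1 inhibitor induced by stress, was well expressed at 68.4 RPKM in low glutamine and 63.0 RPKM in control and did not pass (limma adjusted p = 0.081). The arginine sensor gene Castor1 stood at 0.334 RPKM in low glutamine and 0.394 RPKM in control.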
